A study of Mus musculus with 2 samples.

Results

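Tight junctions seal the space between neighbouring cells, and 9 genes that encode their parts were followed across the cells of the mouse stria vascularis (SV), the capillary-rich lining of the outer wall of the cochlear duct. They are the claudins Cldn5 and Cldn11, the MARVEL-domain proteins occludin (Ocln) and tricellulin (Marveld2), the immunoglobulin-like adhesion molecules F11r (JAM-A), Jam2, Jam3 and Esam, and the cytoplasmic scaffold Tjp1 (ZO-1). The list was set by gene name and matched by Ensembl identifier, and all 9 were found among the 27040 genes listed for both libraries. Their levels were compared between 4 classes of cell barcodes defined by other genes. An endothelial barcode carried a unique molecular identifier (UMI, 1 counted transcript molecule) of at least 4 of the 6 genes Pecam1, Cdh5, Flt1, Egfl7, Ramp2 and Tie1. A mural barcode carried at least 3 of the 4 genes Pdgfrb, Rgs5, Vtn and Notch3 and at most 1 of the endothelial genes. An intermediate barcode carried all 3 of Dct, Tyr and Kcnj10, and a marginal barcode carried both Kcne1 and Kcnq1.

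Claudins form the paired strands that close the space between cells and decide which ions pass, occludin and tricellulin sit in these strands at contacts of 2 and of 3 cells, and ZO-1 ties the strands to actin. JAM proteins and ESAM are adhesion molecules of the same contacts, and ESAM is known from endothelial cells and platelets. The SV holds several sealed layers: the endothelium of its capillaries, which is wrapped by pericytes and forms the blood-labyrinth barrier, a marginal cell layer that faces endolymph, and a basal cell layer that faces the spiral ligament. Claudin-5 is the main claudin of barrier-forming endothelium, and claudin-11 is known from strial basal cells and myelinating glia. Intermediate cells are melanocyte-like cells between the marginal and basal layers and are not known to form tight junctions of the sealing kind.

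Cldn5 and Cldn11 are the 2 claudins of the list and had opposite places in these data, so the 250 bases before each start site are shown (RefSeq, GRCm38, 5′ to 3′ on the gene's strand, with any match of the motifs below in capitals). The Cldn5 window lies at chr16:18776597-18776846 on the plus strand, and the Cldn11 window at chr3:31149670-31149919 on the plus strand.
Cldn5: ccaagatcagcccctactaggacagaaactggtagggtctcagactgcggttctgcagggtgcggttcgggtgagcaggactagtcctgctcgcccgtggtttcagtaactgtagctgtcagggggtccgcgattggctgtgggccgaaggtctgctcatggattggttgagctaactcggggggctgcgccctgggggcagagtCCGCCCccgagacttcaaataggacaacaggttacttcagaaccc
Cldn11: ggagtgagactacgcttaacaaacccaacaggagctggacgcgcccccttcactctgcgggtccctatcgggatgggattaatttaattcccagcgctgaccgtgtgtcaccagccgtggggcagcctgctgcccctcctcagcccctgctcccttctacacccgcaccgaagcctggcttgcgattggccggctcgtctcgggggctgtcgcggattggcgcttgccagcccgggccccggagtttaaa
Both strands were searched for an ETS core (CCGGAAG), a forkhead core (TGTTTAC), an E-box (CACGTG), a GC box (GGGCGG) and a TATA box (TATAAA). The capitals mark 1 GC box, read on the opposite strand, in the Cldn5 window, and the Cldn11 window held none of the 5 motifs. Of 32851 RefSeq windows of this length, 32.7% held a GC box, 6.91% the ETS core, 3.17% the forkhead core, 6.02% the E-box and 12.4% the TATA box. G and C made up 59.6% of the Cldn5 window, with 12 CpG dinucleotides, and 63.6% of the Cldn11 window, with 19, against medians of 52.4% and 6 over all windows.

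The cells came from 2 reporter lines of mice aged 1 to 3 months. In Tie2-GFP mice regulatory sequence of Tek, which encodes an endothelial receptor, drives green fluorescent protein, and in NG2-DsRed mice that of the proteoglycan gene Cspg4 drives a red fluorescent protein that marks pericytes. No other allele and no treatment is stated for either line, and the study used male and female mice. For each line the SV of 20 cochleae from 10 mice was pooled, digested, sorted for the fluorescent reporter where needed and loaded separately on the 10x Chromium 3′ platform, so each line is 1 library. There was no replicate, no test between classes or lines was run, and the 95% intervals reflect only how many molecules or barcodes were counted. They are exact Poisson intervals for levels, Clopper-Pearson intervals for shares of barcodes and binomial intervals, conditional on the summed UMIs, for ratios. The sort, the line and the batch cannot be told apart between the libraries, which share 0 barcodes, so classes were compared within a library.

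The Tie2-GFP library held 633 barcodes with a median of 6956 UMIs, and the NG2-DsRed library held 201 with a median of 4322. The classes held 374 endothelial, 4 mural, 84 intermediate and 26 marginal barcodes in the Tie2-GFP library, with 3 that met several rules and 142 that met none. In the NG2-DsRed library they held 55 endothelial, 99 mural, 23 intermediate and 0 marginal barcodes, with 3 that met several rules and 21 that met none. Thus 59.1% of all deposited barcodes labelled as endothelial cells and 49.3% of those labelled as pericytes met the rule of their label. These shares include barcodes that the study's limits on genes, UMIs, mitochondrial and ribosomal content leave out. Of the 142 of no class in the Tie2-GFP library, with a median of 212.5 genes and 81.7% mitochondrial UMIs, 26 lay within those limits. Among endothelial barcodes of that library 364 of 374 did. In the NG2-DsRed library 94 of 99 mural barcodes did, and 10 of 21 of no class. Median depth was 7633 UMIs in endothelial, 16077.5 in intermediate and 12786.5 in marginal barcodes of the Tie2-GFP library, and 9247 in endothelial, 3027 in mural and 10383 in intermediate barcodes of the NG2-DsRed library.

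Summed over each list, markers that the rules did not use were highest in their own class. A list of 6 endothelial genes (Tek, Kdr, Emcn, Cd34, Ptprb, Sox17) summed to 3245 CPM (counts per 1000000 UMIs of the class) in endothelial barcodes of the Tie2-GFP library and to 2932 in those of the NG2-DsRed library. Against this stood 7.08 CPM in intermediate and 11.6 in marginal barcodes of the Tie2-GFP library, and 141 in mural barcodes. In mural barcodes 1 of the 6 genes gave 126.5 CPM of the sum, and Tek, Kdr and Sox17 were at 0. The 6 mural genes (Cspg4, Kcnj8, Abcc9, Acta2, Tagln, Myh11) summed to 9143 CPM in mural barcodes, but also to 945 CPM in the endothelial barcodes of the NG2-DsRed library against 125 CPM in those of the Tie2-GFP library. Of the 55 endothelial barcodes of the NG2-DsRed library, 39 carried UMIs of at least 2 of the 4 genes of the mural rule, as did 31 of the 374 of the Tie2-GFP library. The 6 intermediate genes (Pax3, Mitf, Pmel, Tyrp1, Mlana, Met) summed to 3207 and 2527 CPM in intermediate barcodes, with Tyrp1 at 0 in both libraries. Pmel had 1 UMI in the intermediate barcodes of each library, against 4 in endothelial barcodes of the Tie2-GFP library, and so did not sort with the class. The 6 marginal genes summed to 11926 CPM in marginal barcodes and to 3245 CPM in intermediate barcodes of the Tie2-GFP library. In those intermediate barcodes 1 of the 6 genes gave 3213 CPM of the sum, and Lmx1a was at 0. The 4 hemoglobin genes summed to 2911 CPM in endothelial barcodes of the Tie2-GFP library and to 22.6 CPM in those of the NG2-DsRed library, and their part in the results was not tested. Median mitochondrial content was 1.81% in endothelial, 9.26% in intermediate and 17.9% in marginal barcodes of the Tie2-GFP library, so that 364 of 374, 6 of 84 and 1 of 26 lay within the limits of the study on genes, UMIs, mitochondrial and ribosomal content. Levels in intermediate and marginal barcodes therefore rest mostly on barcodes that the study's limit of 5% mitochondrial UMIs leaves out, and the part of this in the results was not tested.

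The members fell into several patterns. Cldn5 was found almost only in endothelial barcodes, Ocln and F11r in endothelial and marginal barcodes, Esam in endothelial and mural barcodes, Jam3 in mural and endothelial barcodes, and Jam2 in intermediate and endothelial barcodes. Tjp1 was present in every class and highest in endothelial barcodes, Marveld2 was scarce throughout, and Cldn11 was concentrated in a few barcodes outside the endothelial class. An endothelial barcode held UMIs of a median of 5 of the 9 genes in each library, against 2 in marginal barcodes and 1 in mural barcodes of the NG2-DsRed library and in intermediate barcodes of either. At an equal depth of 2000 UMIs the expected number was 2.87 and 3.06 in endothelial barcodes of the Tie2-GFP and NG2-DsRed libraries, 1.06 in mural, 0.644 and 0.465 in intermediate and 0.503 in marginal barcodes.

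**Figure D1:**
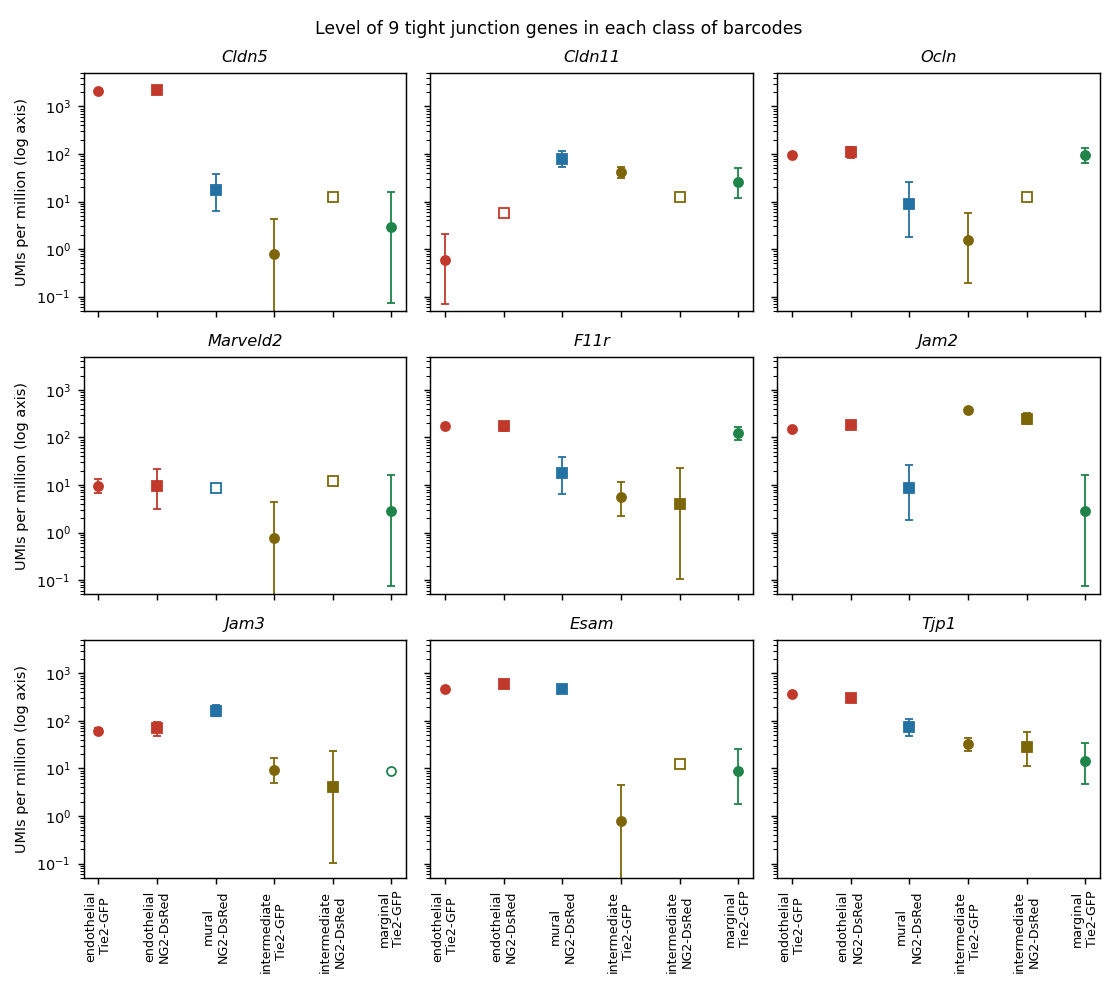
Level of each of the 9 genes in CPM on a log axis, for each class with at least 10 barcodes (circles, Tie2-GFP library; squares, NG2-DsRed library). Bars are exact 95% Poisson intervals for counting error, some reaching below the axis, and open symbols mark 0 UMIs, drawn at the level that 3 counts would give. Cldn5 stands above 2000 only in the endothelial barcodes, while Jam2 is highest in intermediate barcodes.

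Cldn5 (ENSMUSG00000041378, chr16:18776847-18778262, GRCm38, plus strand) encodes claudin-5. Within the Tie2-GFP library the gene was at 2103 CPM (2055 to 2153, 7199 UMIs) in endothelial barcodes, 0.787 CPM (0.0199 to 4.38, 1 UMI) in intermediate and 2.90 CPM (0.0735 to 16.2, 1 UMI) in marginal barcodes. Within the NG2-DsRed library the gene was at 2213 CPM (2089 to 2344, 1176 UMIs) in endothelial and 17.6 CPM (6.48 to 38.4, 6 UMIs) in mural barcodes, and 0 UMIs were found in intermediate barcodes. The endothelial interval lay above that of every other class in both libraries, and the intervals of the non-endothelial classes overlapped apart from mural and Tie2-GFP intermediate barcodes. The log2 ratio of endothelial to mural barcodes was 6.97 (5.84 to 8.42), and 3 of the 6 mural UMIs were in 1 barcode. With stricter class rules the ratio was 9.88, above that interval. With 3 counts over the class in place of 0, the level in endothelial barcodes was 181-fold that in intermediate barcodes of the NG2-DsRed library. The counting interval of that log2 ratio begins at 7.20. This value is for barcodes of 1 class, and with the barcodes that met several rules kept in each class the same log2 ratio of Cldn5 was 4.53. Cldn5 UMIs were present in 97.3% of endothelial barcodes of the Tie2-GFP library (95.1 to 98.7), at a median of 7633 UMIs, and in 1.19% of intermediate barcodes (0.0301 to 6.46), which should lack the gene, at 16077.5 UMIs. Endothelial barcodes held 99.6% of all Cldn5 UMIs of the Tie2-GFP library and 92.8% of those of the NG2-DsRed library.

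Within the endothelial class Cldn5 varied widely from barcode to barcode. In the Tie2-GFP library the 10th percentile, median and 90th percentile of barcodes were 371, 1739 and 4623 CPM. Its variance over barcodes was 12.7 times the Poisson variance expected at their depths, where 145 genes with between 0.5 and 2 times its UMIs had a median of 3.37. In the NG2-DsRed library the corresponding values were 6.22 and, over 110 genes, 2.69. The other members with at least 30 UMIs in the class had ratios of 1.15 to 2.13, where genes of their level had medians of 1.16 to 1.78. Tjp1 had 2.13 against 1.63 and Marveld2 1.75 against 1.16 in the Tie2-GFP library, and Esam, next to Cldn5 in UMIs, had 1.57 against 1.78. The side of the median turned in the NG2-DsRed library for Tjp1, at 1.19 against 1.37, and for Esam, at 1.73 against 1.62. It also turned for Ocln, F11r and Jam3, which lay below the median in the Tie2-GFP and above it in the NG2-DsRed library. Besides Cldn5 only Jam2 kept its side, at 1.356 against 1.339 and 1.286 against 1.275, and Marveld2 had under 30 UMIs in the NG2-DsRed library.

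Of the UMIs of all 23 claudin genes looked for, Cldn5 made up 98.1% in endothelial barcodes of the Tie2-GFP library (7199 of 7339) and 99.3% in those of the NG2-DsRed library (1176 of 1184). These are 3′ tags, which count a molecule near its end and do not scale with its length. In marginal barcodes Cldn9 made up 46.6% of 320 claudin UMIs, Cldn7 20.3%, Cldn3 16.9% and Cldn8 10.3%, genes singled out after their values were seen. Thus the endothelial and the marginal class were each dominated by claudins that the other nearly lacked: Cldn9 was at 432 CPM (366 to 508) in marginal and at 0.292 CPM (1 UMI) in endothelial barcodes.

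Cldn11 (ENSMUSG00000037625, chr3:31149920-31164324, plus strand) encodes claudin-11, known from strial basal cells, for which no class was set. Its level in the Tie2-GFP library was 0.584 CPM (0.0708 to 2.11, 2 UMIs) in endothelial, 40.9 CPM (30.6 to 53.7, 52 UMIs) in intermediate and 26.1 CPM (11.9 to 49.6, 9 UMIs) in marginal barcodes. In the NG2-DsRed library 27 UMIs gave 79.4 CPM (52.3 to 115.5) in mural barcodes, and 0 were found in endothelial or intermediate barcodes. Class levels hide where these UMIs lay. Of the 52 UMIs in intermediate barcodes, 49 were in 1 barcode, and without it the level was 2.39 CPM. The 27 mural UMIs were in 2 barcodes with 21 and 6. The class ratios of Cldn11 in intermediate and mural barcodes therefore rest on 1 or 2 barcodes, and the 9 UMIs in marginal barcodes were spread over 6 barcodes with at most 2 each.

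Over the whole Tie2-GFP library 20 barcodes held 254 Cldn11 UMIs, and the 8 barcodes with at least 4 held 239 of them (94.1%). The 8 counts were 51, 50, 49, 34, 26, 16, 9 and 4, and 6 of these barcodes met no class rule, 1 was intermediate and 1 met both the intermediate and the marginal rule. Depths of the 8 were 4523 to 24661 UMIs, so they were not shallow. UMIs of both Gjb2 (connexin 26) and Gjb6 (connexin 30), gap junction genes of strial basal and intermediate cells, were present in 6 of the 8 and in both barcodes of the NG2-DsRed library. The presence of the 2 connexins does not set these barcodes apart by itself, since 72 of 84 intermediate barcodes also held both. Their counts were balanced otherwise. The 6 held 48, 61, 51, 33, 36 and 18 UMIs of Gjb2 beside 33, 39, 53, 29, 24 and 11 of Gjb6. Over the intermediate class of that library 633 Gjb2 UMIs (498 CPM) stood beside 1454 of Gjb6. The 2 of the NG2-DsRed library held 23 and 11 of Gjb2 beside 25 and 3 of Gjb6. Of the other basal markers on the list, Sox8 was present in 4 of the 8 and Kcnk2 in 2. The 2 with Kcnk2 were those with 16 and 4 Cldn11 UMIs, which held 0 UMIs of Gjb2 and Gjb6. Kcnk2 was at 0 in all 80 barcodes of the Tie2-GFP library with both connexins. The 2 barcodes of the NG2-DsRed library held 0 UMIs of Sox8 and Kcnk2. Dct, a pigment cell gene of the intermediate rule, was present in 7 of the 8, with 29, 6, 7, 4, 29, 2 and 5 UMIs in the first 7 in the order above, and 15 and 0 UMIs of it were found in the 2 barcodes of the NG2-DsRed library. By comparison, the intermediate barcodes with 1 Cldn11 UMI held 171, 248 and 509 Dct UMIs at depths of 4771, 13250 and 14242 UMIs. Marginal barcodes with Cldn11 held from 0 to 12. The fibrocyte genes Coch and Otor were at 0 and at 1 UMI in the 8 and in the 2 of the NG2-DsRed library. Otos and Car3, the remaining genes of the fibrocyte list, were not counted barcode by barcode. Over all barcodes with both connexins the list held 4 UMIs in the Tie2-GFP library, with Coch and Otor at 0. In those of the NG2-DsRed library it held 3 UMIs, all of Car3. The 2 mural barcodes also held 12 and 45 UMIs of the pericyte gene Rgs5, which is 1 of the 4 genes of the rule that set their class.

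**Figure D2:**
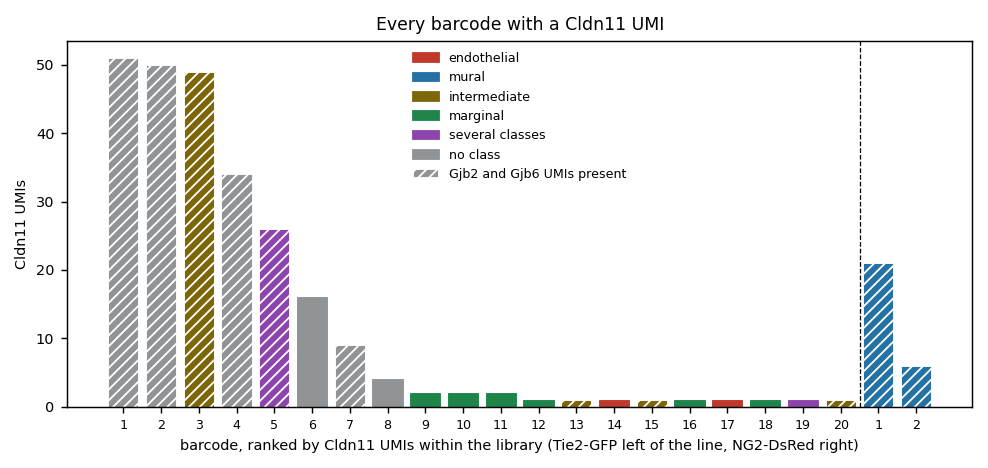
Cldn11 UMIs in each of the 20 barcodes from the Tie2-GFP and 2 from the NG2-DsRed library that held any, coloured by class, with hatching where Gjb2 and Gjb6 UMIs were both present. The highest bars reach 51, 50 and 49 UMIs, and most of them belong to barcodes of no class.

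Ocln (ENSMUSG00000021638, chr13:100496507-100552718, minus strand) encodes occludin. Among Tie2-GFP barcodes it was at 96.4 CPM (86.3 to 107.4, 330 UMIs) in endothelial, 95.8 CPM (65.9 to 134.5, 33 UMIs) in marginal and 1.57 CPM (0.191 to 5.68, 2 UMIs) in intermediate barcodes. Its level in the NG2-DsRed library was 109 CPM (82.9 to 141.1, 58 UMIs) in endothelial and 8.82 CPM (1.82 to 25.8, 3 UMIs) in mural barcodes, and 0 UMIs were found in intermediate barcodes. Endothelial and marginal barcodes thus stood together and the other classes lay below them without overlap of their intervals. The log2 ratio of endothelial to marginal barcodes was 0.01 (-0.51 to 0.57), that of endothelial to intermediate barcodes 5.94 (4.07 to 8.99) and that of endothelial to mural barcodes 3.63 (2.01 to 5.95). Ocln UMIs were present in 76.9% of marginal barcodes and 50.3% of endothelial barcodes, which were shallower, and at 2000 UMIs the expected shares were 20.9% and 17.9%, with 0.705% in intermediate barcodes.

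Marveld2 (ENSMUSG00000021636, chr13:100595957-100616971, minus strand) encodes tricellulin, the protein of contacts between 3 cells. It was at 9.64 CPM (6.64 to 13.5, 33 UMIs) in endothelial barcodes of the Tie2-GFP library, with 1 UMI each in intermediate (0.787 CPM) and marginal barcodes (2.90 CPM). In the NG2-DsRed library 5 UMIs gave 9.41 CPM (3.06 to 22.0) in endothelial barcodes, and 0 were found in mural or intermediate barcodes. Its log2 ratio of endothelial to intermediate barcodes of the Tie2-GFP library was 3.62 (1.04 to 8.96). A difference from marginal barcodes was not detectable at this depth, the log2 ratio being 1.73 (-0.85 to 7.08). UMIs were present in 6.95% of endothelial barcodes (4.59 to 10.0) of the Tie2-GFP library, and 0 of 99 mural barcodes held one, which allows a share of barcodes with a UMI of up to 3.03% by the limit of 3 counts (Clopper-Pearson upper bound 3.66%) at a median of 3027 UMIs.

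F11r (ENSMUSG00000038235, chr1:171437535-171464603, plus strand) encodes JAM-A, a JAM protein of epithelia and endothelia. Within the Tie2-GFP library the gene was at 170 CPM (157 to 185, 583 UMIs) in endothelial, 125 CPM (90.3 to 168, 43 UMIs) in marginal and 5.51 CPM (2.21 to 11.3, 7 UMIs) in intermediate barcodes. Among NG2-DsRed barcodes it was at 173 CPM (140 to 212, 92 UMIs) in endothelial, 17.6 CPM (6.48 to 38.4, 6 UMIs) in mural and 4.08 CPM (0.103 to 22.8, 1 UMI) in intermediate barcodes. The order of classes was that of Ocln, with endothelial and marginal barcodes apart from the rest. The log2 ratio was 0.45 (0.0011 to 0.93) for endothelial over marginal, 4.95 (3.90 to 6.27) for endothelial over intermediate and 3.29 (2.12 to 4.78) for endothelial over mural barcodes. UMIs were present in 73.5% of endothelial and 65.4% of marginal barcodes of the Tie2-GFP library, against 8.33% of intermediate barcodes.

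Jam2 (ENSMUSG00000053062, chr16:84774123-84825928, plus strand) encodes JAM-B, a partner of JAM-C, and was the only member with its highest level in intermediate barcodes of both libraries. Its level in the Tie2-GFP library was 377 CPM (344 to 412, 479 UMIs) in intermediate, 152 CPM (139 to 166, 520 UMIs) in endothelial and 2.90 CPM (0.0735 to 16.2, 1 UMI) in marginal barcodes. Within the NG2-DsRed library the gene was at 249 CPM (190 to 320, 61 UMIs) in intermediate, 184 CPM (150 to 225, 98 UMIs) in endothelial and 8.82 CPM (1.82 to 25.8, 3 UMIs) in mural barcodes. The intervals of intermediate and endothelial barcodes were apart in the first library and overlapped in the second. The log2 ratio of endothelial to intermediate barcodes was -1.31 (-1.49 to -1.13) in the Tie2-GFP and -0.43 (-0.91 to 0.05) in the NG2-DsRed library, and the difference between the libraries was not tested. Jam2 UMIs were present in 91.7% (83.6 to 96.6) and 95.7% (78.1 to 99.9) of intermediate barcodes, so its level there was not that of a few barcodes. At 2000 UMIs the expected shares were 51.3% in intermediate against 25.9% in endothelial barcodes of the Tie2-GFP library, and 39.3% against 33.2% in the NG2-DsRed library.

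Jam3 (ENSMUSG00000031990, chr9:27097384-27155421, minus strand) encodes JAM-C. Its level in the NG2-DsRed library was 165 CPM (124 to 214, 56 UMIs) in mural, 69.6 CPM (49.0 to 96.0, 37 UMIs) in endothelial and 4.08 CPM (0.103 to 22.8, 1 UMI) in intermediate barcodes. Among Tie2-GFP barcodes it was at 61.6 CPM (53.6 to 70.6, 211 UMIs) in endothelial and 9.44 CPM (4.88 to 16.5, 12 UMIs) in intermediate barcodes, with 0 UMIs in marginal barcodes. Mural barcodes thus lay above endothelial barcodes without overlap, at a log2 ratio of endothelial to mural of -1.24 (-1.88 to -0.62). Of the 12 UMIs in intermediate barcodes, 11 were in the barcode with 49 Cldn11 UMIs, and without it the level was 0.797 CPM. Jam3 UMIs were also present in 6 of the 7 barcodes of the Tie2-GFP library with the most Cldn11 UMIs other than that one, and in both of those of the NG2-DsRed library. In the mural class Jam3 UMIs were present in 33.3% of barcodes (24.2 to 43.5) at a median of 3027 UMIs, and in endothelial barcodes in 34.5% at 9247 UMIs. At 2000 UMIs the expected shares were 25.8% and 9.89%.

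Esam (ENSMUSG00000001946, chr9:37528078-37538319, plus strand) encodes endothelial cell-selective adhesion molecule. Within the Tie2-GFP library the gene was at 464 CPM (442 to 488, 1589 UMIs) in endothelial, 0.787 CPM (0.0199 to 4.38, 1 UMI) in intermediate and 8.71 CPM (1.80 to 25.4, 3 UMIs) in marginal barcodes. Among NG2-DsRed barcodes it was at 587 CPM (524 to 656, 312 UMIs) in endothelial and 465 CPM (395 to 543, 158 UMIs) in mural barcodes, and 0 UMIs were found in intermediate barcodes. Esam was thus shared by both vascular classes, whose intervals overlapped, and was near 0 outside them. The log2 ratio of endothelial to mural barcodes was 0.34 (0.06 to 0.62). With 3 counts over the class in place of 0, the level in mural barcodes was 37.9-fold that in intermediate barcodes (the counting interval of the log2 ratio begins at 4.93). With the barcodes that met several rules kept in each class, the log2 ratio of Esam was 3.42 for mural and 3.75 for endothelial over intermediate barcodes. In the same mural barcodes 6 Cldn5 UMIs stood beside the 158 of Esam, where endothelial barcodes held 1176 and 312. Esam UMIs were present in 73.7% of mural barcodes (63.9 to 82.1), 98.2% of endothelial barcodes and 0 of 23 intermediate barcodes, which allows a share of barcodes with a UMI of up to 13.04% by the limit of 3 counts (Clopper-Pearson upper bound 14.8%) at a median depth of 10383 UMIs.

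The mural barcodes were also divided by contractile genes, 41 with UMIs of at least 2 of Acta2, Tagln and Myh11 and 58 with fewer. Esam was at 505 CPM (407 to 619) in the first and 418 CPM (324 to 532) in the second, and Jam3 at 165 CPM (111 to 235) and 165 CPM (108 to 242). The intervals overlapped for both genes. Tjp1 was at 43.9 CPM (18.9 to 86.5) and 108 CPM (62.8 to 172.5), also overlapping. The 2 barcodes with Cldn11 were among the 58 and held 6 and 3 of their 26 Jam3 UMIs.

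Tjp1 (ENSMUSG00000030516, chr7:65296165-65527781, minus strand) encodes ZO-1, which binds claudins, occludin and JAM-A. Its level in the Tie2-GFP library was 361 CPM (341 to 382, 1235 UMIs) in endothelial, 33.0 CPM (23.8 to 44.7, 42 UMIs) in intermediate and 14.5 CPM (4.71 to 33.9, 5 UMIs) in marginal barcodes. Within the NG2-DsRed library the gene was at 301 CPM (256 to 352, 160 UMIs) in endothelial, 73.5 CPM (47.6 to 108.5, 25 UMIs) in mural and 28.6 CPM (11.5 to 58.9, 7 UMIs) in intermediate barcodes. Endothelial barcodes were highest without overlap in both libraries, and the mural and intermediate intervals of the NG2-DsRed library overlapped each other, although the interval of their log2 ratio, 1.36 (0.11 to 2.82), did not include 0. The log2 ratio of endothelial barcodes was 3.45 (3.01 to 3.93) over intermediate and 4.64 (3.41 to 6.26) over marginal barcodes of the Tie2-GFP library, and 2.03 (1.42 to 2.70) over mural and 3.40 (2.32 to 4.74) over intermediate barcodes of the NG2-DsRed library. The GENCODE annotation places Gm44792 and Gm44794 on the strand of Tjp1 and Gm25908 on that of Jam2, within whose spans reads may be shared, and Gm44795, Gm48796 and Gm24261 on the strand opposite Tjp1, Jam3 and Marveld2.

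**Figure D3:**
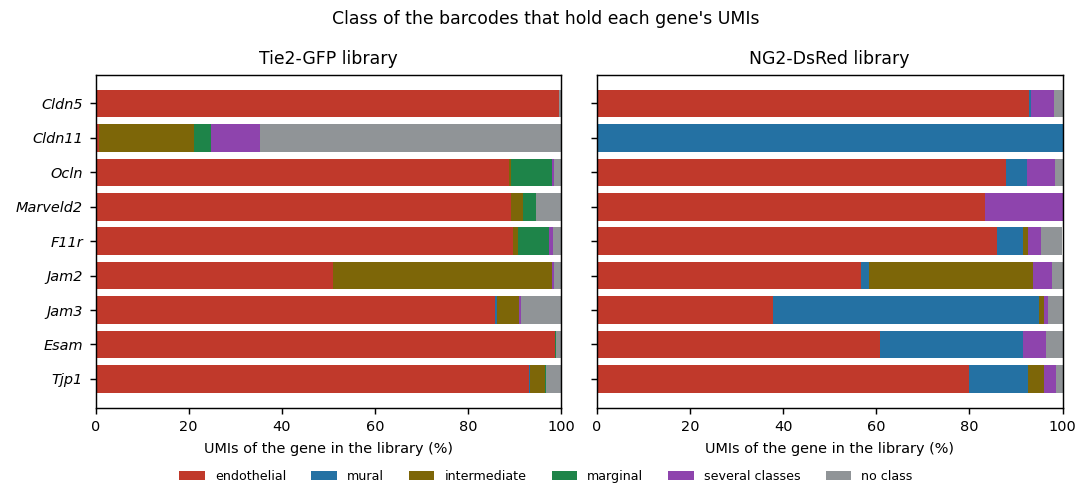
Share of each gene's UMIs (percent of its UMIs in the library) by the class of the barcode that held them, for the Tie2-GFP and NG2-DsRed libraries. Endothelial barcodes hold 99.6% of Cldn5 UMIs in the Tie2-GFP library, while 64.6% of Cldn11 UMIs there lie in barcodes of no class and all 27 in the NG2-DsRed library lie in mural barcodes. Bars scale with the number and depth of barcodes in each class, not only with the level of the gene.

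Across the members, a gene was called where its CPM differed at least 4-fold between 2 classes (0.5 counts added) with at least 20 UMIs over both. Between endothelial and intermediate barcodes of the Tie2-GFP library all 9 members reached 20 UMIs, 7 were called higher in endothelial barcodes (Cldn5, Ocln, Tjp1, Marveld2, F11r, Jam3 and Esam), where 16.0% of 10454 genes were, and 1 was called lower (Cldn11), where 8.17% were. The remaining member was Jam2. The median log2 ratio was 3.43 over the members and 0.16 over all genes tested. In the NG2-DsRed library the same comparison had 7 members with enough UMIs, 6 called higher (13.1% of 5882 genes) and 0 lower (6.56%), with Cldn11 and Marveld2 below 20 UMIs. The 6 became 4 when barcodes with markers of another class were left out. Against marginal barcodes 8 members had enough UMIs, 5 were called higher in endothelial barcodes (Cldn5, Tjp1, Jam2, Jam3 and Esam, beside 20.4% of 9937 genes) and 0 lower (8.62%). Ocln and F11r were not called, Marveld2 was not called with 1 marginal UMI, and Cldn11 had too few UMIs.

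Between endothelial and mural barcodes of the NG2-DsRed library 8 members had enough UMIs. Of these, 5 were called higher in endothelial barcodes (Cldn5, Ocln, Tjp1, F11r and Jam2), where 6.02% of 6414 genes were, and 1 lower (Cldn11), where 5.16% were. Jam3 and Esam were not called, and Marveld2 had too few UMIs. The median log2 ratio was 2.60 over these members and -0.11 over all genes. Tjp1 passed the 4-fold limit narrowly, at 4.10-fold before 0.5 counts were added. Its call was lost, leaving 4, under the limits of the study, with barcodes of several classes kept, with stricter class rules and with 1 count added. Between mural and intermediate barcodes 5 members had enough UMIs, 3 were called higher in mural barcodes (Cldn11, Jam3 and Esam, beside 12.9% of 5076 genes) and 1 lower (Jam2, beside 6.54%). Between intermediate and marginal barcodes of the Tie2-GFP library 5 members had enough UMIs, 1 was called higher in intermediate barcodes (Jam2, beside 8.77% of 7556 genes) and 2 lower (Ocln and F11r, beside 5.6%). With the barcode holding the most UMIs of a gene left out of each class, the call of Cldn11 was lost in every comparison that had it.

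**Figure D4:**
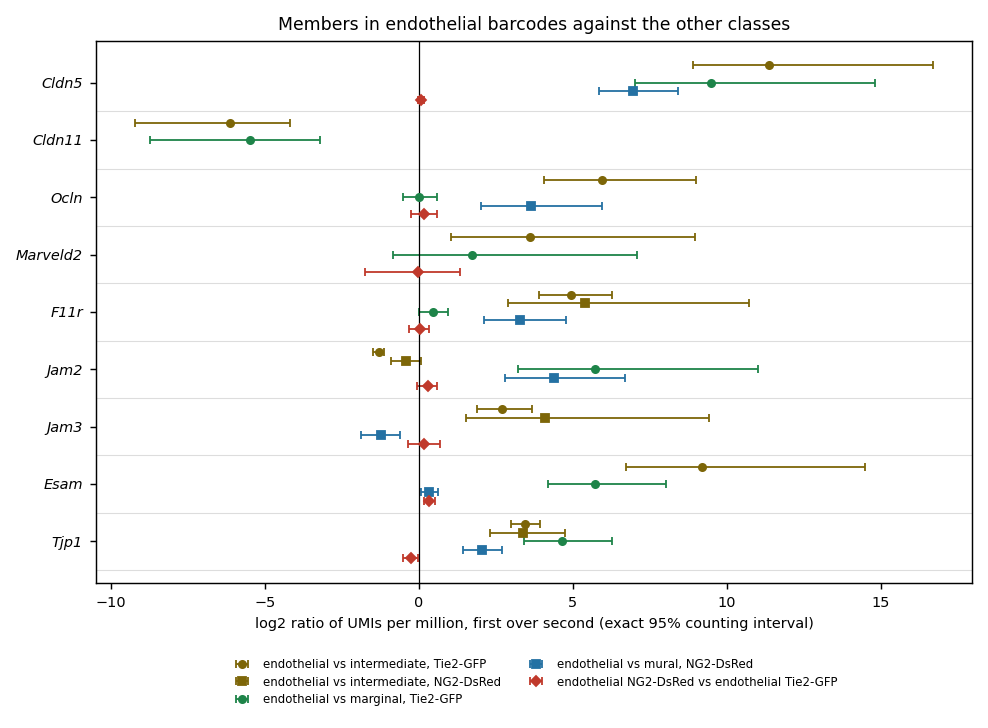
Log2 ratio of CPM for each gene, with exact 95% counting intervals, for endothelial barcodes over intermediate, marginal and mural barcodes within a library and for endothelial barcodes of the NG2-DsRed over those of the Tie2-GFP library. Ratios with 0 UMIs on one side are not drawn. Ratios over another class range from -6.13 for Cldn11 to 11.38 for Cldn5, while those between the endothelial barcodes of both libraries lie near 0. The ratio of -6.13 rests mostly on 1 intermediate barcode, and was -2.67 with the top barcode of each class left out. That of 11.38 (8.91 to 16.69) rests on 1 intermediate UMI.

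Taken as whole classes, the endothelial barcodes of both libraries had like levels of the members, although the lines carried reporters of different cells and the classes differed in their share of barcodes with mural markers. Of 8 members with enough UMIs, 0 were called higher and 0 lower in the NG2-DsRed library, beside 2.72% and 3.06% of 9678 genes, with no test of the difference. The log2 ratio of the NG2-DsRed to the Tie2-GFP library was 0.07 (-0.02 to 0.16) for Cldn5, 0.18 (-0.25 to 0.59) for Ocln, 0.02 (-0.31 to 0.34) for F11r and 0.28 (-0.05 to 0.59) for Jam2. The intervals of these 4 genes include 0, and those of Esam, at 0.34 (0.16 to 0.51), and Tjp1, at -0.26 (-0.51 to -0.02), do not. Endothelial barcodes that also carried at least 2 mural markers had less Cldn5. In the Tie2-GFP library these 31 barcodes held 1162 CPM (1073 to 1257) against 2279 CPM (2224 to 2335) in the other 343, and in the NG2-DsRed library 39 held 1997 CPM (1863 to 2137) against 3002 CPM (2693 to 3336) in the other 16. F11r stood at 109.5 CPM (83.4 to 141.3) against 182 CPM (167 to 198), and at 132 CPM (99.4 to 172) against 323 CPM (227 to 445). Esam and Tjp1 were also lower in the Tie2-GFP library, at 384 CPM (334 to 440) against 479 CPM (454 to 505) and 284 CPM (241 to 333) against 375 CPM (353 to 398). Their intervals overlapped in the NG2-DsRed library. Jam3 did not follow, at 61.3 CPM (42.2 to 86.0) against 61.7 CPM (53.0 to 71.5), and at 74.4 CPM (50.5 to 105.6) against 52.4 CPM (19.2 to 114). Without the barcodes that carried markers of another class, the log2 ratio between the libraries moved to 0.41 for Cldn5, 0.79 for Ocln, 0.85 for F11r and 0.70 for Jam2. Among barcodes with fewer than 2 mural markers, the counting intervals of Cldn5, F11r and Esam thus lay higher in the NG2-DsRed library without overlap. Esam was at 646 CPM (507 to 811) there against 479 CPM (454 to 505). The intervals of the other members overlapped. Like those between barcodes with and without mural markers, these intervals leave out the spread among barcodes, which were only 16 in the NG2-DsRed library. Over the whole endothelial class the variance of Cldn5 was 12.7 (Tie2-GFP) and 6.22 (NG2-DsRed) times the Poisson variance. Whether these groups differ beyond such spread was not tested. The barcodes with mural markers were deeper, with medians of 17499 and 10491 UMIs against 7257 and 6202.5, and the part of depth or of droplets with 2 cells was not tested.

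Among endothelial barcodes the members were only loosely related to each other. Pearson's r of depth-corrected counts over 374 barcodes of the Tie2-GFP library ranged from -0.07 to 0.37 over 28 pairs with a median of 0.06, and over 55 barcodes of the NG2-DsRed library from -0.34 to 0.40 over 21 pairs. Cldn5 and Esam made the highest pair in both libraries, at 0.37 and 0.40. These values describe sparse counts of barcodes from 1 library each.

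The genes most like each member over the 6 class-by-library levels were named by the Euclidean distance of centred log2(CPM + 10) profiles among 4830 genes with at least 200 UMIs. Ocln and F11r were nearest to each other, at a distance of 0.33, and Hmcn1 was the next for both, at 0.89 and 0.61. Nearest to Cldn5 were Ly6c1 (0.86) and Ctla2a (1.52), to Tjp1 Vwa1 (0.25) and Fn1 (0.32), to Esam Cxcl12 (1.02) and Col4a2 (1.10), to Jam2 Glul (1.07) and Nrp2 (1.15), and to Jam3 Cdkn1c (0.45) and Zic2 (0.54). Marveld2 was nearest to Gtpbp4 (0.19) and Ubxn4 (0.27), at 40 UMIs in all, and Cldn11 to Ndrg2 (1.70). The profile of Cldn11 rests on a few barcodes, and those of low genes are flattened by the 10 CPM added.

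Beyond the members, 56 of 58 listed symbols of other tight junction genes were found in both libraries. Between endothelial and intermediate barcodes of the Tie2-GFP library 24 of the 56 had enough UMIs, 6 were called higher in endothelial barcodes (16.0% of all genes tested) and 0 lower (8.17%), with a median log2 ratio of 1.29 against 0.16 over all genes. The 6 were Afdn (afadin, a linker of nectins to actin) at 293 against 60.6 CPM, Lsr (angulin-1, which recruits tricellulin) at 170 against 3.15 CPM, Vasp (an actin regulator) at 98.2 against 20.4 CPM, Magi1 (a scaffold) at 45.9 against 7.08 CPM, Marveld1 at 41.8 against 5.51 CPM and Ildr2 (angulin-3) at 20.7 CPM against 0 UMIs. Lsr and Ildr2 are angulins, proteins that belong with Marveld2 at contacts of 3 cells. The remaining angulin, Ildr1, had 1 UMI in endothelial barcodes (0.292 CPM), 0 in intermediate and 6 in marginal barcodes (17.4 CPM, 6.39 to 37.9). Between endothelial and mural barcodes of the NG2-DsRed library 19 had enough UMIs, 4 were called higher in endothelial barcodes (6.02% of all genes tested) and 0 lower (5.16%), with a median of -0.09 against -0.11 over all genes. Among them were Afdn at 233 against 11.8 CPM, Lsr at 164 against 2.94 CPM and Magi3 at 64.0 against 8.82 CPM. Vasp and Marveld1 stood at 212 and 165 CPM in mural barcodes, against 128 and 60.2 CPM in endothelial barcodes of that library.

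Several claudins outside the list of members were higher in marginal barcodes. Of the 29 listed genes with enough UMIs, 9 were called higher in endothelial barcodes (20.4% of all genes tested) and 6 in marginal barcodes (8.62%), with a median log2 ratio of endothelial to marginal of 0.86 against 0.25 over all genes. The 6 were Cldn3, Cldn7, Cldn8, Cldn9, Crb3 and Prkcz, the last 2 being members of apical polarity complexes, all named after their values were seen. Cldn7 was at 189 CPM (146 to 240), Cldn3 at 157 CPM (118 to 204.5), Cldn8 at 95.8 CPM (65.9 to 134.5) and Crb3 at 66.7 CPM (42.3 to 100.1) in marginal barcodes. Each of these had at most 2 UMIs over the 374 endothelial barcodes. Intermediate against marginal barcodes had 1 of 20 called higher (Arhgef11, also named after its values were seen, beside 8.77% of all genes tested) and 8 lower (5.6%).

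**Figure D5:**
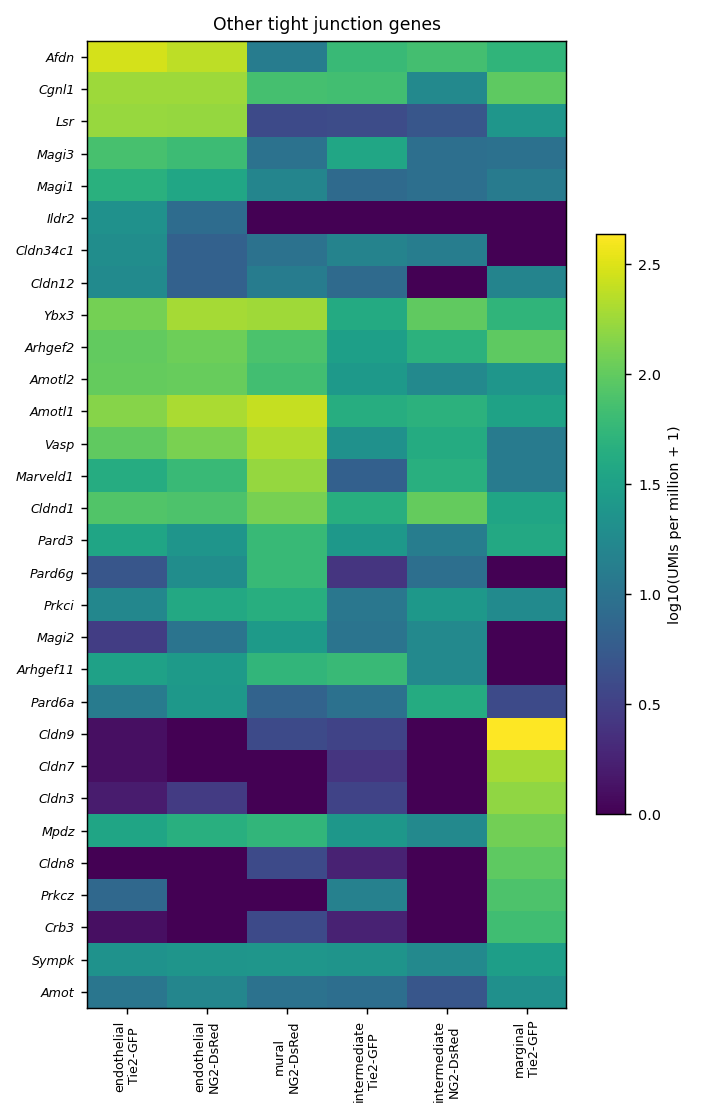
Level of 30 other tight junction genes with at least 20 UMIs over the 6 sets of barcodes, as log10(CPM + 1), ordered by the set with the highest level. Afdn, Cgnl1 and Lsr are highest in endothelial barcodes, and Cldn9, Cldn7, Cldn3 and Cldn8 in marginal barcodes.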

How the data were processed

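Single-cell 3′ RNA-seq of mouse SV cells was read from the deposited count matrices, in which the authors give whole-number UMI counts per gene and barcode without normalization. The submitters' processing notes name mm10 (GRCm38) and bcl2fastq 2.20.0.422, and per the file headers the matrices came from software versions 7.0.0 (Tie2-GFP) and 3.0.0 (NG2-DsRed). Whether introns were counted is not given in the sources used here, so levels between libraries may also differ by version.

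All deposited barcodes were used, and genes were matched by Ensembl identifier. Barcodes that met several class rules were left out of the classes. No doublet caller was run; as an alternative, barcodes with markers of another class were removed. UMIs were summed per class and scaled to CPM. Shares at equal depth are the expected shares after thinning to 2000 UMIs, with shallower barcodes left out. Classes under 10 barcodes were not compared. Genes of the class rules were left out of the counts over all genes. The depth per library is given above, and intervals cover counting error only.

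The members and lists were chosen with earlier results of these data known. Genes were named as all 9 members, the listed tight junction genes called between endothelial and intermediate (Tie2-GFP) or endothelial and mural barcodes (at most the 8 with the most UMIs in each), and the 2 genes most like each member. Other genes named in the text, among them those from comparisons with marginal barcodes, were chosen after their values were seen. Some items that this rule names are not reported here. Promoters were taken from a RefSeq table that held 6 of the 9 members, and gene spans from GENCODE M21. Scripts were tested on simulated data. Python 3.11.15, numpy 2.4.6, scipy 1.17.1, pandas 2.3.3 and matplotlib 3.10.9 were used.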

Additional observations from a re-analysis of the deposited data

Results flagged for a closer look

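Cldn11 stood at 484.3 CPM (413 to 564.3, 164 UMIs) in the 142 barcodes of the Tie2-GFP library that met no class rule, which no comparison used, against 0.584 CPM in endothelial barcodes. It drew attention as signal outside the compared classes. The 164 UMIs lay in 6 of the 142 barcodes. Those 142 barcodes had a median of 1396.5 UMIs and 81.7% mitochondrial UMIs, and the basal list (Sox8, Kcnk2, Gjb2, Gjb6) summed to 865 CPM in them with all 4 genes present, of which Gjb2 gave 487 and Gjb6 357 CPM. The same list summed to 1646.5 CPM in intermediate barcodes of that library. Both sums are averages over a set and do not describe the barcodes with Cldn11. Those of no class with 51, 50, 34 and 9 Cldn11 UMIs held 48, 61, 33 and 18 UMIs of Gjb2. Those with 16 and 4 held 0, and the whole set of 142 held 165. Kcnk2 had 4 UMIs in the set, 2 in each of the barcodes with 16 and 4 Cldn11 UMIs.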

How the results depend on the processing

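Of 158 counts of called members recomputed under the alternatives, 140 stayed within 1.5 times the reported count and 18 moved. Of 416 log2 ratios, 401 moved by less than their counting error and 15 moved further, and 0 changed sign among called values. Among 432 CPM levels 384 stayed and 48 moved. Among 108 shares at equal depth, recomputed at 1000 and 4000 UMIs, 75 stayed and 33 moved. The expected share of a gene rises with the depth drawn, so these numbers cannot be set beside those for counts, ratios and levels. At a 2-fold limit the members lower in endothelial barcodes became 2 against both intermediate (Tie2-GFP) and mural barcodes, and those higher in intermediate than marginal barcodes became 2. With at least 100 UMIs required, the members lower in the first class became 0 for endothelial against intermediate (Tie2-GFP), intermediate against marginal, endothelial against mural and mural against intermediate barcodes, and those higher became 3 for endothelial against mural, 1 for mural against intermediate and 3 for endothelial against intermediate barcodes of the NG2-DsRed library, since fewer genes were tested. With at least 1 UMI, 1 member was lower in endothelial than marginal barcodes, 2 were higher in intermediate than marginal and 5 in mural than intermediate barcodes. With barcodes of several classes kept, 1 member was lower in endothelial than marginal and 2 in mural than intermediate barcodes. With stricter class rules, 0 were lower in endothelial than mural barcodes. With the barcode holding the most UMIs of a gene left out of each class, an alternative chosen after seeing the data, 0 were lower in endothelial than intermediate (Tie2-GFP) or mural barcodes, the ratio of Cldn11 in the former became -2.67 and that of Jam3 became 5.67.

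The limits of the study on barcodes left under 10 intermediate and marginal barcodes, and the 5 comparisons with these classes have no value under them. With 1 library per line there was no replicate to leave out. No paired analysis was possible because each line is 1 library and no result comes from a test. Values resting on under 4 UMIs, as for Marveld2 outside the endothelial class, are limited by depth.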
